A study of Mus musculus with 2 samples.

Results

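The genes described here are those of heme synthesis in mouse G1E-ER4 cells: Alas1, Alas2, Slc25a38, Alad, Uros, Urod, Cpox, Ppox and Fech, taken in the order in which their products act. They were chosen by name, as the rows whose gene identifier maps to these symbols in the GENCODE mouse annotation. The rule itself uses no measured value, but earlier results of these data were known when it was set. All 9 genes were found among 69691 gene rows, of which 21474 were protein-coding genes, together with 51 transcripts of these 9 genes. The enzyme that acts between Alad and Uros was not analysed here. G1E-ER4 is an immortalized erythroid line that lacks functional Gata1 of its own and carries Gata1 fused to the ligand-binding domain of an estrogen receptor, so that estradiol turns Gata1 activity on. The labels describe the cells as male and postnatal, with an age of 0 day. PolyA RNA was sequenced after 7 hours in 10 nM 17beta-estradiol, in 2 libraries of 1 group that the labels number as biological replicates 1 and 2. No untreated sample was analysed here, so the values are levels in treated cells and say nothing of a change with estradiol. Both libraries are of 1 cell line and name 1 and the same biological sample, so their spread, and any p-value, may be technical in origin.

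Heme is built from glycine and succinyl-CoA. The pathway starts in the mitochondrion with 5-aminolevulinate synthase, continues in the cytosol from Alad to Urod, and ends in the mitochondrion with Cpox, Ppox and Fech, which puts iron into the ring. Most cells use Alas1 for the first step, while developing red cells use Alas2, whose messenger RNA carries an iron-responsive element that lets iron-regulatory proteins hold back its translation. Slc25a38 is the mitochondrial carrier that brings in glycine for that step. Gata1 is known to bind and activate heme synthesis genes during red cell maturation.

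The libraries held 59610969 and 44689405 expected counts, the authors' estimates of fragments per gene. Detection meant a TPM, a level corrected for transcript length and library size, of at least 1 in both libraries. By that rule 11 of 12 erythroid markers were detected. The exception was Slc4a1, the red cell anion exchanger, at TPM values of 0.52 and 0.36. The summed TPM of the erythroid markers was 23707.9 in replicate 1 and 14586.4 in replicate 2. None of 12 hepatocyte markers was detected, 7 of them, Alb and Hnf4a included, had 0 counts in both libraries, and their summed TPM was 0.42 and 0.13. Of 8 markers each, 3 were detected for megakaryocytes, 1 for myeloid cells and 1 for lymphoid cells. Their summed TPM was 91.43 and 97.69 for megakaryocytes, 1.81 and 2.69 for myeloid cells, and 1.69 and 1.88 for lymphoid cells. The detected megakaryocyte markers were Gp1ba, at a TPM of 52.56 and 52.67, Gp5, at 32.56 and 39.57, and Itga2b, at 5.12 and 4.21. The others were not detected, with Vwf and Ppbp at 0 counts. The part of these other cell types in the values below was not tested. In bulk RNA a lower share of expressing cells and less RNA per cell cannot be told apart.

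All 9 genes were detected, where 38.3% of 21474 protein-coding genes were. Their levels differed by a wide margin along the pathway. Alad was highest, with a TPM of 483 ± 107 (SD, n = 2), and the enzymes of the last mitochondrial steps, Cpox and Fech, followed. Alas1, Alas2 and Uros lay lowest, at 5.23 to 6.23 on average. The median TPM over the 9 genes was 94.14 in replicate 1 and 98.41 in replicate 2, beside 21.19 and 19.62 over all detected protein-coding genes. The highest gene stood 97.6-fold above the lowest in replicate 1 and 130-fold in replicate 2. The summed TPM of the 9 genes was 1316.49 and 1103.86, and Alad alone made up 42.4% and 36.9% of it.

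**Figure D1:**
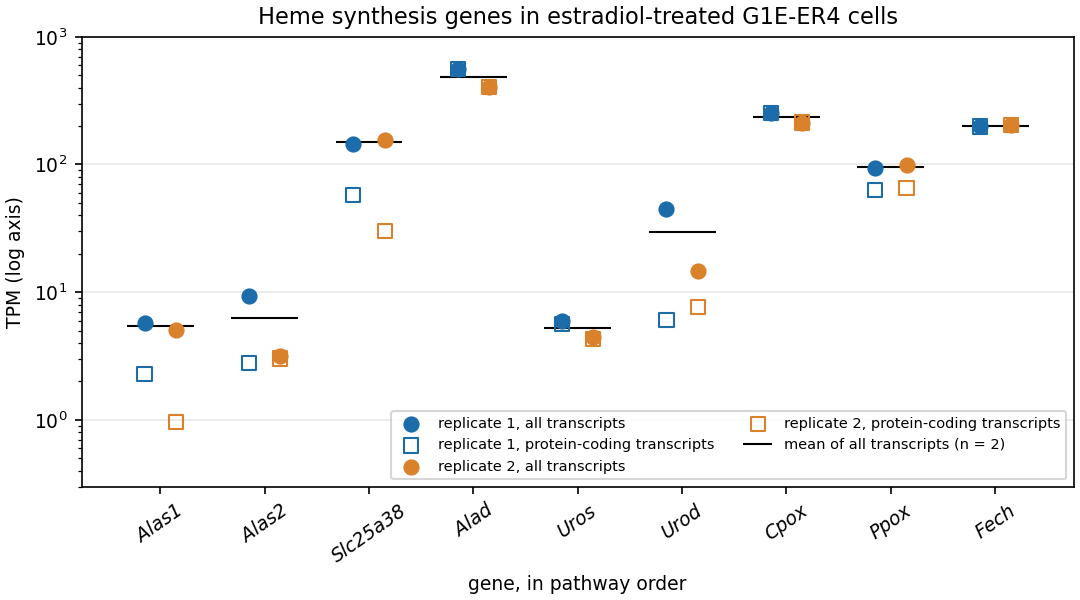
TPM (vertical log axis) of each gene in pathway order (horizontal axis) in replicates 1 (blue) and 2 (orange); filled circles are all transcripts, open squares the protein-coding transcripts only, and bars the mean over 2 libraries. Alad, Cpox and Fech lie near the top by both measures, while the squares of Urod, Slc25a38 and Alas1 fall well below their circles.

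In order of mean TPM the genes ran Alad, Cpox, Fech, Slc25a38, Ppox, Urod, Alas2, Alas1 and Uros. Neighbours from Alad down to Alas2 kept this order in both libraries and their ranges did not overlap. The closest of them were Cpox and Fech, whose ratio was 1.28 in replicate 1 and 1.05 in replicate 2. The authors' tables give their transcripts as 3186 and 2901 bases, where GENCODE M21 gives 3097 and 2059. TPM divides by length, so the order of this pair may depend on the annotation release, which was not tested. Alas2 and Alas1 changed places between the libraries, and so did Alas1 and Uros, so these 3 genes cannot be ordered by gene TPM.

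Alas1, the form of 5-aminolevulinate synthase found in most tissues, lies on the minus strand of chromosome 9 (106233455 to 106248654, GRCm38). Its TPM was 5.72 in replicate 1 against 5.09 in replicate 2, averaging 5.41 ± 0.445 (SD, n = 2), from 421 and 237 expected counts. The libraries were close, and the authors' intervals, 5.02 to 6.64 and 4.31 to 6.12, overlapped. That level ranked 6470th and 6349th among the 21474 protein-coding genes. The antisense gene 4930500F10Rik overlaps Alas1, and whether the counting used strand is not given in the sources used here, so reads of the pair may not be separated.

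The Alas1 counts were spread over several transcripts, none of which held most of the TPM in either library. The protein-coding transcripts ENSMUST00000074082 and ENSMUST00000141118 had TPM values of 1.24 and 0.55, and of 1.05 and 0.42. ENSMUST00000143125, annotated as a target of nonsense-mediated decay and covering exons 7 to 11 of the 11 exons of the first of these, had 1.36 and 2.51. The processed transcript ENSMUST00000134053, without an annotated coding part, had 0.72 and 1.62, and the retained-intron transcript ENSMUST00000123115 had 1.36 and 0. By these estimates the protein-coding transcripts were higher in replicate 1, and the decay target and the processed transcript higher in replicate 2. The authors' intervals were apart only for ENSMUST00000141118, at 0.76 to 1.36 and 0.22 to 0.68. For the decay target they were 0.21 to 2.37 and 0.64 to 3.27. They also overlapped for the other transcripts named here, so the split of Alas1 between forms is uncertain. Protein-coding transcripts of Alas1 summed to a TPM of 2.29 and 0.97, a mean of 1.63 ± 0.933 (SD, n = 2), which was 40.0% and 19.0% of the gene. Leaving out the decay target moved the libraries apart, to a TPM of 4.37 and 2.59.

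Alas2, the erythroid form of the enzyme, lies on the plus strand of chromosome X (150547375 to 150570638) and overlaps Apex2 and Mir3620 on the other strand. Its TPM was 9.32 in replicate 1 against 3.14 in replicate 2, averaging 6.23 ± 4.37 (SD, n = 2), from 397 and 200 expected counts. By TPM replicate 1 was 2.97 times replicate 2, and the SD was 70.1% of the mean, where the median over detected protein-coding genes was 17.6%. By counts scaled for library size the libraries differed less, at -0.38 on the log2 scale (replicate 2 over replicate 1). The effective length by which the authors' tables divide the Alas2 counts was 840 bases in replicate 1 and 1801 bases in replicate 2.

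The 2 protein-coding transcripts of Alas2 are the longer ENSMUST00000066337, of 2037 bases, and the shorter ENSMUST00000112715, of 1892 bases. Each has 11 exons, but they start and end at different positions. Both hold the CAGTG loop of the iron-responsive element before the coding part. The 30 bases around the loop are shown, from the GENCODE M21 transcripts, because iron control of Alas2 acts through this element. Capitals mark CAGTG and the base that follows it, with T for the U of the RNA.
ENSMUST00000066337: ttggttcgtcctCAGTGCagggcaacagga
ENSMUST00000112715: tggttcgtcctCAGTGCagggcaacaggac
The loop starts at base 96 of the 126 bases that precede the coding part in the longer form, and at base 12 of 42 in the shorter form. The longer form had a TPM of 1.86 in replicate 1 and 2.26 in replicate 2. The shorter form had 0.94 and 0.77, which makes the longer one 1.98 and 2.94 times as abundant. Both libraries therefore held Alas2 transcripts with the element, at similar estimated levels, summing to 2.8 and 3.03.

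The Alas2 transcript that differed most between the libraries was ENSMUST00000142474, a processed transcript of 569 bases without an annotated coding part. It covers exons 10 and 11 of the 11 exons of the longer coding form and shares 458 bases with them (chromosome X, 150566390 to 150570622). Reads from those bases can be given to either form, so the estimated levels of the coding forms depend on that split. What sets ENSMUST00000142474 apart is intron sequence kept just before exon 10, and the junction is shown with that exon in capitals.
ENSMUST00000142474: ttcttttgagtccagGTGGGTAATGCAGCA
The short transcript had 136.49 expected counts in replicate 1 and 0.5 in replicate 2, which was 70.0% and 0.955% of the gene's TPM and 34.4% and 0.25% of its counts. By the authors' other TPM estimate, a posterior mean, its share was 69.5% and 10.7%. In replicate 2 its TPM was 0.03, but the authors' interval reached 0.93, so its share there is uncertain. Without this transcript the TPM of Alas2 was 2.8 and 3.11, a mean of 2.96 ± 0.219 (SD, n = 2), and the log2 ratio of its scaled counts was 0.23. The ratio of Alas1 to Alas2 TPM was 0.614 in replicate 1 against 1.62 in replicate 2, averaging 1.12 ± 0.712 (SD, n = 2), so gene TPM gave opposite orders of the pair. By expected counts, which are not per length, the ratio was 1.06 and 1.19, with Alas1 the higher in both libraries. Over the TPM of protein-coding transcripts alone it was 0.818 and 0.320, with Alas2 the higher in both. The order of the pair therefore depended on the measure.

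**Figure D2:**
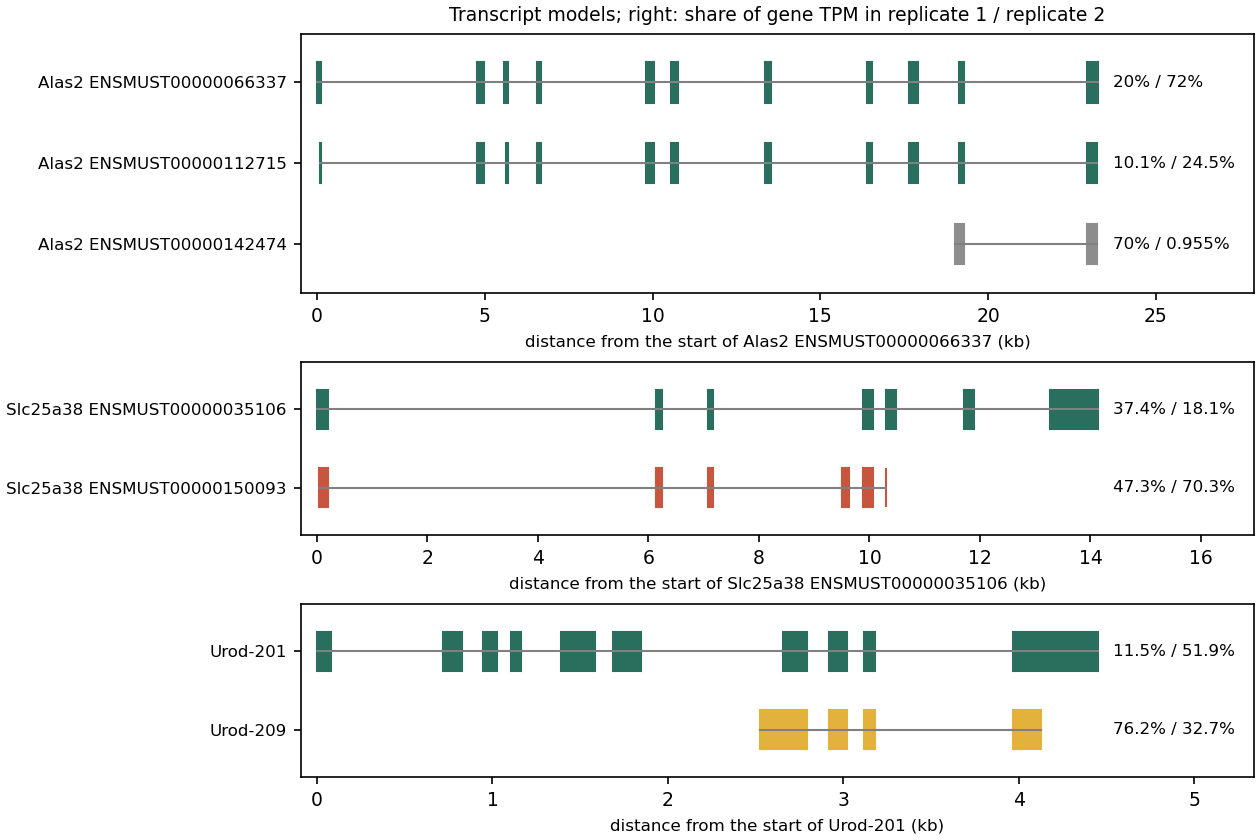
Exons (boxes) and introns (lines) of transcripts of Alas2, Slc25a38 and Urod by distance from the start of the first model (kb); green is protein-coding, grey processed transcript, red nonsense-mediated decay and yellow retained intron, with the percent of gene TPM in replicates 1 and 2 at the right. The third Alas2 model and Urod-209 cover only the 3′ exons of their genes and took 70.0% and 76.2% of the TPM in replicate 1.

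Slc25a38, the mitochondrial glycine carrier, lies on the plus strand of chromosome 9 (120110374 to 120124504). Its TPM of 145.61 and 154.3 was far above that of either synthase gene, at 150 ± 6.14 (SD, n = 2), and ranked 1003rd and 945th. By gene TPM the libraries were within 4.10% of the mean (SD), but the transcripts behind it differed. ENSMUST00000035106, the protein-coding form with 7 exons, had a TPM of 54.48 in replicate 1 and 27.96 in replicate 2. ENSMUST00000150093, annotated as a target of nonsense-mediated decay, had 68.81 and 108.48, and the authors' intervals for it, 61.6 to 73.0 and 99.4 to 112, were apart. One form was thus lower in replicate 2 and the other higher, and the gene total hid both. The processed transcript ENSMUST00000139079 had 9.53 and 11.70.

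The decay target carries an extra exon of 123 bases (chromosome 9, 120119883 to 120120005) that the coding form lacks, and the reading frame meets a stop codon inside it. It also ends within exon 5 of the 7 exons of the coding form. The stop is shown in capitals because it ends the reading frame of this form early.
ENSMUST00000150093: agaagatggaaagTGAtgtttaaactacac
The stop codon starts at base 454 of the transcript. Protein-coding transcripts of Slc25a38 summed to a TPM of 57.62 and 29.93, which was 39.6% and 19.4% of the gene. The share of the extra-exon form was 47.3% and 70.3% by TPM, and 26.4% and 52.1% by counts. Without it the TPM of Slc25a38 was 76.8 and 45.83, farther apart than the gene total.

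Alad, which joins 2 molecules of aminolevulinate into porphobilinogen, lies on the minus strand of chromosome 4 (62509169 to 62519918). Its TPM was 558.48 in replicate 1 and 407.6 in replicate 2, from 29875 and 15358 expected counts, and it ranked 232nd and 354th. Replicate 1 was higher, and both libraries lay above every other gene of the pathway. The protein-coding Alad-201 held 94.0% and 94.5% of the TPM, and the other coding form, Alad-202, held 5.44% and 5.04%. Transcript assignment therefore left Alad almost as it was, with 99.4% and 99.6% of its TPM in protein-coding transcripts. Alad stood 37.1-fold above the sum of Alas1 and Alas2 in replicate 1 and 49.5-fold in replicate 2. Over protein-coding transcripts the same ratio was 109 and 101.

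Uros, which closes the linear tetrapyrrole into a ring, lies on the minus strand of chromosome 7 (133686243 to 133710072) and overlaps Bccip on the other strand. Its TPM was 5.97 in replicate 1 against 4.49 in replicate 2, averaging 5.23 ± 1.05 (SD, n = 2), from 455 and 233 expected counts. Of the genes from Alad to Fech it was the lowest. Alad over Uros was 93.5 and 90.8, so the gap was nearly the same in both libraries. The leading transcript, Uros-203, had a TPM of 2.75 and 2.43, Uros-201 had 1.82 and 0.90, and Uros-204 had 0.92 and 0.81. All 3 are protein-coding, and protein-coding transcripts held 95.0% and 96.7% of the TPM. The retained-intron transcript Uros-206 had 0.30 and 0.15.

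Urod, which removes carboxyl groups from the ring and is the last cytosolic enzyme, lies on the minus strand of chromosome 4 (116989965 to 116994413). Its TPM was 44.59 in replicate 1 against 14.68 in replicate 2, averaging 29.6 ± 21.1 (SD, n = 2), from 1237 and 474 expected counts. The values were far apart, the SD was 71.4% of the mean, and the rank moved from 2695 to 4615. Urod-209, a retained-intron transcript over exons 7 to 10 of the 10 exons of Urod-201 (chromosome 4, 116990285 to 116991886), had a TPM of 33.99 and 4.79. Urod-201, the protein-coding form, had 5.14 and 7.62, and was the higher one in replicate 2. The retained-intron transcript Urod-205 had 1.44 and 1.17.

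The kept intron of Urod-209 runs straight into exon 7, and the junction is shown with the exon in capitals.
Urod-209: gtcacctgtttatagGCATTGCAGCTCTTT
Of its 598 bases, 470 are shared with Urod-201, so reads from the shared exons can be given to either. Urod-209 held 761.53 and 76.87 expected counts, and 76.2% and 32.7% of the gene's TPM. Without it the TPM of Urod was 10.6 and 9.88, a mean of 10.2 ± 0.509 (SD, n = 2). By scaled counts the rest of Urod was higher in replicate 2, with a log2 ratio of 0.35. Protein-coding transcripts alone summed to 6.03 and 7.62, 13.5% and 51.9% of the gene. Alad over Urod was 12.5 and 27.8 over all transcripts, and 92.1 and 53.3 over protein-coding ones. Urod was in place 6 of the mean order either way.

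Cpox, which oxidizes coproporphyrinogen in the mitochondrial intermembrane space, lies on the plus strand of chromosome 16 (58670292 to 58717636) and overlaps Gpr15 on the other strand. It had a TPM of 254.22 in replicate 1 against 212.91 in replicate 2, averaging 234 ± 29.2 (SD, n = 2). With 39037 and 22887 expected counts it was the most heavily counted gene of the pathway, and replicate 1 was a little higher. The authors' tables hold 1 transcript of it, so no count was shared between forms.

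Ppox, which makes protoporphyrin, lies on the minus strand of chromosome 1 (171275990 to 171281186) and overlaps B4galt3 on the other strand. Its TPM was 94.14 and 98.41, a mean of 96.3 ± 3.02 (SD, n = 2), and the libraries were close. The protein-coding Ppox-201 had 62.18 and 65.58. Ppox-204, a processed transcript of 420 bases over exons 3 to 5 of the 13 exons, had 22.77 and 28.56, which was 24.2% and 29.0% of the TPM but 4.61% and 5.83% of the counts. Protein-coding transcripts held 66.6% of the TPM in each library.

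Fech, which inserts iron to finish heme, lies on the minus strand of chromosome 18 (64452914 to 64490251). It had a TPM of 198.44 in replicate 1 against 203.24 in replicate 2, averaging 200.8 ± 3.39 (SD, n = 2), from 27606 and 19800 expected counts. The libraries were closest here, with an SD of 1.69% of the mean. The authors' tables hold 1 transcript of Fech, so no count was shared between forms. Fech over Ppox was 2.11 and 2.07, so the last pair of enzymes kept a steady ratio, while Cpox over Urod moved from 5.70 to 14.5.

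By annotated class the genes fell into those with nearly all TPM in protein-coding transcripts (Alad, Uros, Cpox and Fech) and those where other classes took much of it (Alas1, Alas2, Slc25a38, Urod and Ppox). For Cpox and Fech the share was fixed, because the authors' tables hold 1 transcript of each. Over 6184 detected protein-coding genes with several transcripts, the median share of protein-coding transcripts was 93.6% in replicate 1 and 93.2% in replicate 2. A share under 50% in both libraries was found in 23.7% of those genes, and Alas1 and Slc25a38 were among them. The largest move of any transcript's share between the libraries was 69.0 percentage points for Alas2 and 43.6 for Urod, beside a median of 8.89 over the 6184 genes. A move at least as large as that of Alas2 occurred in 0.679% of them, and one at least as large as that of Urod in 4.56%. For Alas1 and Slc25a38 the moves were 25.48 and 23.04 points, which 15.9% and 19.2% of the genes reached.

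**Figure D3:**
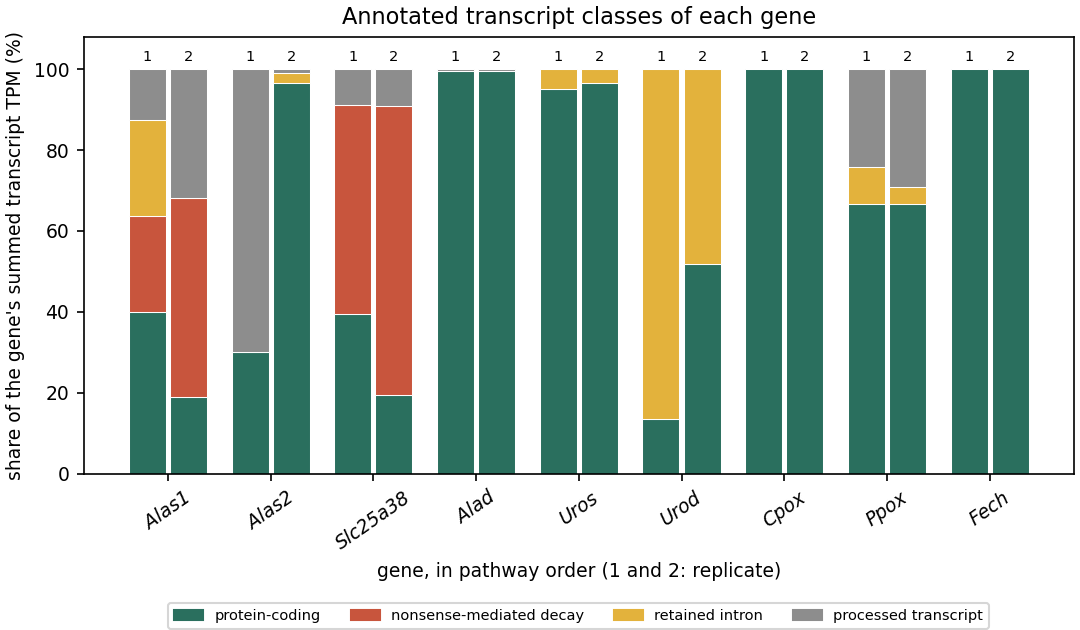
Share of each gene's summed transcript TPM (vertical axis, %) by annotated transcript class, for replicates 1 and 2 of each gene in pathway order. Alad, Uros, Cpox and Fech are almost all protein-coding, whereas Alas2 went from 30.0% to 96.5% protein-coding and Urod from 13.5% to 51.9%.

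Summing protein-coding transcripts alone, a choice made after the data were seen, gave the order Alad, Cpox, Fech, Ppox, Slc25a38, Urod, Uros, Alas2 and Alas1. Alad, Cpox and Fech kept the first places. Ppox passed Slc25a38, at 64.2 ± 2.01 and 43.8 ± 19.6 (SD, n = 2), and Uros passed both synthase genes. Alas1 and Alas2 were then lowest, at 1.63 ± 0.933 and 2.92 ± 0.163 (SD, n = 2).

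The libraries were compared with an exact two-sided binomial test of rounded expected counts, scaled by TMM (edgeR's trimmed mean of M-values) and with Benjamini-Hochberg adjustment over 11285 genes. The test takes counting noise as the only error and compares these libraries, not conditions. The difference was beyond counting error for 8 of the 9 genes, where 67.9% of all genes tested were beyond it, so a difference of this kind was common among all genes. Of these, Alas2, Slc25a38, Alad, Uros, Urod and Cpox were higher in replicate 1, beside 35.4% of all genes, and Ppox and Fech were higher in replicate 2, beside 32.5%. With scaling by total counts, which moved the median log2 ratio of all genes from -0.03 to -0.23, Alas1 joined the genes beyond counting error, Ppox left them, and all 8, Fech included, were higher in replicate 1. Among all genes beyond counting error, 52.1% were higher in replicate 1 with TMM and 69.7% with total counts.

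The exception was Alas1, with a log2 ratio of -0.22 and an adjusted p of 0.0937 by the exact binomial test. Adjusted p was 0.00435 for Alas2 and 0.0040 for Uros by the same exact test, and between 7.86e-133 (Alad) and 6.33e-07 (Ppox) for the others. The log2 ratios were small, from -0.77 for Urod to 0.14 for Ppox, with a median of -0.22 beside -0.03 over all genes tested. By scaled counts none of the 9 genes also reached a fold of 2 in the exact binomial test, where 11.3% of all genes did (8.58% higher in replicate 1 and 2.72% in replicate 2). At an unadjusted p under 0.05 the exact binomial test found 8 of the 9. A negative binomial test by edgeR with the spread of this pair (a biological coefficient of variation of 0.288) called 0 of the 9, with 0 at an unadjusted p under 0.05, and called 103 of the 11285 genes. Its spread came from the same 2 libraries that it compared, so a typical difference between them could hardly pass. The result therefore does not show that the 9 genes were alike.

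**Figure D4:**
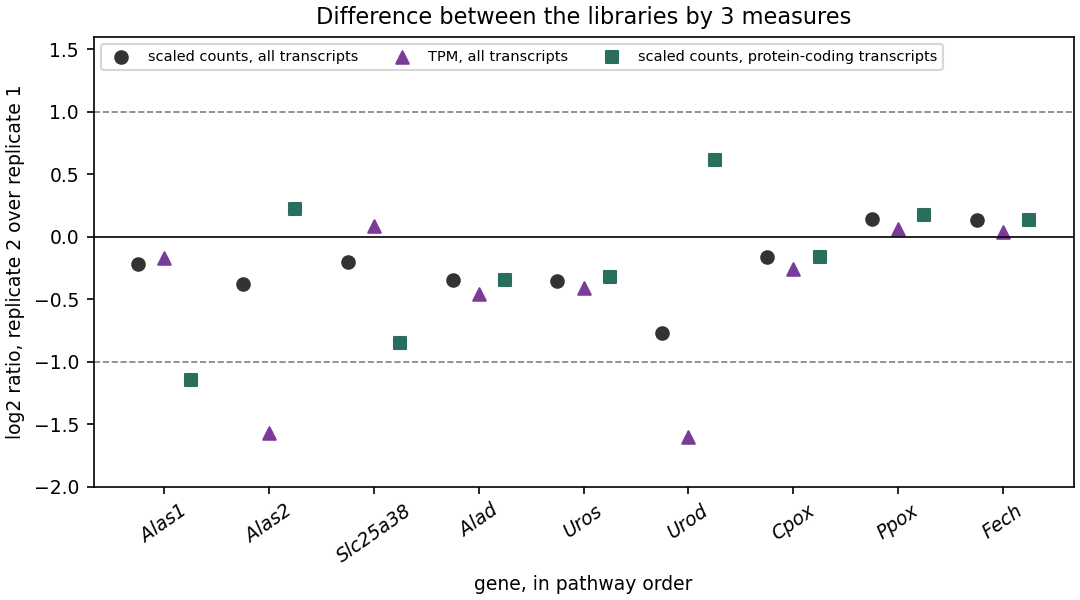
Log2 ratio of replicate 2 over replicate 1 (vertical axis) for each gene in pathway order, by scaled counts (circles), TPM (triangles) and scaled counts of protein-coding transcripts (squares); dashed lines mark a fold of 2. The measures lie close together for Alad, Uros, Cpox, Ppox and Fech and spread widely for Alas2 and Urod, whose TPM ratios are -1.57 and -1.60. For Alas1 and Slc25a38 the squares lie well below the circles and triangles.

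The measures of the difference did not give the same answer for every gene. For Alas2 the log2 ratio was -0.38 by scaled counts, -1.57 by TPM and 0.21 by scaled counts of protein-coding transcripts. For Urod it was -0.77, -1.60 and 0.62. The sign turned for both when protein-coding transcripts alone were counted. Alas1, at -1.14 by that count, was the one gene that then passed a fold of 2. That value depends on the uncertain split of the Alas1 counts between its transcripts. Slc25a38 was lower in replicate 2 by scaled counts (-0.20) and slightly higher by TPM (0.08). By scaled counts of protein-coding transcripts it was at -0.85, the largest of its 3 differences.

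The sequence upstream of the transcription starts is shown for the erythroid gene Alas2, for Cpox and for Alad, which lie at the bottom and top of the range of levels. Windows of 250 bases before each RefSeq start (GRCm38.p6) were found for 8 of the 9 genes, 11 windows in all, with none for Fech. They were searched on both strands for the GATA motif (A or T, then GATA, then A or G), for the CACCC motif CCNCACCC and for the GC box GGGCGG, and overlapping matches were counted. Bases that lie in an annotated transcript are not printed, and capitals mark GATA matches.
Alas2 promoter, chrX:150547167-150547374, plus strand: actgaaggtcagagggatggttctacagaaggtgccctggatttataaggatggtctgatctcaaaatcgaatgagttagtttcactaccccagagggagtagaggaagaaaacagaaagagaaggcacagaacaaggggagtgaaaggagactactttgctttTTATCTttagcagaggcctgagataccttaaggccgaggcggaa
Cpox promoter, chr16:58669958-58670207, plus strand: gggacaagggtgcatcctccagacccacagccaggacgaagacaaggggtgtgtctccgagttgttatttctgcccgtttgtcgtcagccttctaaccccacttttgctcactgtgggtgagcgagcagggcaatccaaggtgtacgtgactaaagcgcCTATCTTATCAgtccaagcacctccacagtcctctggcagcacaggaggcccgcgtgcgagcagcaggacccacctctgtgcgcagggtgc
Alad promoter, chr4:62519919-62520159, minus strand: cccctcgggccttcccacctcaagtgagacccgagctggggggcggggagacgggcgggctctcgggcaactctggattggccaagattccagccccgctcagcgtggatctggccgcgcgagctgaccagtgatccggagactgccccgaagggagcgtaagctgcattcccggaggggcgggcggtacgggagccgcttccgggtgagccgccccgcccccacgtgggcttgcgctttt
The Alas2 window held 1 GATA match, 80 bases before the start, along with 2 CACCC matches and 1 GC box in the bases not printed. The Cpox window held 2 GATA matches that overlap, 85 and 80 bases before the start. The Alad window held no GATA match and 6 GC boxes, some of which overlap.

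GATA matches were found in 3 of the 11 windows, those of Alas2, of Cpox and of a second start of Uros, where 26.5% of 32851 mouse windows of the same length hold one. CACCC matches were found in 3 windows, of Alas1 and Alas2, where 14.9% of all windows hold one. GC boxes were found in 6 windows, where 32.7% of all windows hold one. The windows of both Alad starts are among them and overlap, so some GC boxes were counted in each. Of the genes with a GATA match, Cpox had a TPM of 234 ± 29.2 and Alas2 of 6.23 ± 4.37 (SD, n = 2). The window of the first Uros start, nearest Uros-201, held no GATA match. The gene TPM of Uros, 5.23 ± 1.05 (SD, n = 2), is over all its transcripts, and the use of either start was not tested. A match is a description of the letters, and binding was not measured.

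Genes that move heme and its precursors were next compared with the pathway. Of 15 such genes 12 were detected, 2 had 0 counts in both libraries, and the median TPM was 43.54 in replicate 1 and 50.48 in replicate 2. Tmem14c, a mitochondrial membrane protein needed to bring the porphyrin ring to its last enzymes, had a TPM of 524.86 and 302.43, close to Alad. Abcb10, a transporter of the mitochondrial inner membrane, had 225.74 and 266.87, and Slc25a39, a mitochondrial glutathione carrier, had 270.87 and 140.85. By the exact binomial test 7 of 13 genes tested were higher in replicate 1 and 5 in replicate 2 beyond counting error. Over all genes tested the shares were 35.4% and 32.5%. The exporter Abcg2, at 20.18 and 5.29, was the one that also passed a fold of 2 (log2 ratio -1.20), where 11.3% of all genes did.

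Genes that supply glycine, succinyl-CoA and iron were detected in 14 of 15 cases, with a median TPM of 43.31 and 32.85. Dlst, a subunit of the oxoglutarate dehydrogenase complex that makes succinyl-CoA, had the highest mean, with 229.64 in replicate 1 and 333.32 in replicate 2. Shmt2, the mitochondrial enzyme that makes glycine from serine, had 271.43 and 193.65, and was above Dlst in replicate 1. Beyond counting error, 7 of 14 genes tested were higher in replicate 1 and 5 in replicate 2, beside 35.4% and 32.5% of all genes. The 4 that passed a fold of 2 were all higher in replicate 1, where 8.58% of all genes tested were. Suclg1, a subunit of succinyl-CoA ligase, had a TPM of 57.05 and 9.3 (log2 ratio -2.15), and the cytosolic Shmt1 had 6.35 and 3.14 (-1.14). The oxoglutarate dehydrogenase subunits Ogdh and Dld had 47.07 and 20.73 (-1.23), and 12.57 and 3.64 (-1.68). Subunits of 1 complex thus went in opposite directions between the libraries, with Dlst higher in replicate 2 (0.64).

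**Figure D5:**
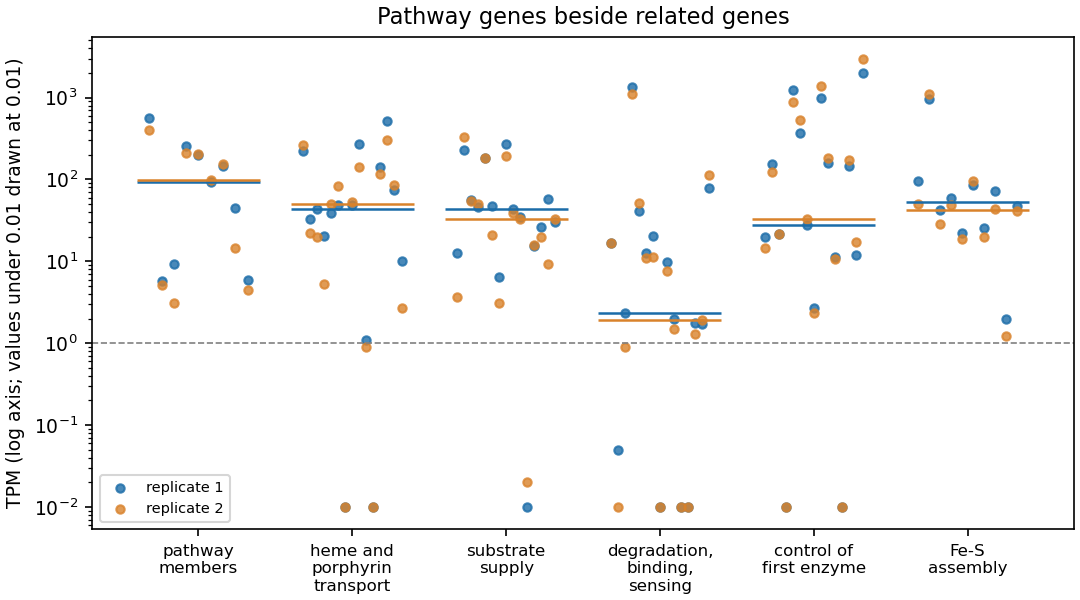
TPM (vertical log axis) of the 9 pathway genes beside genes of 5 related lists, 1 pair of points per gene with replicate 1 in blue and replicate 2 in orange; solid lines are the median of each library and the dashed line marks a TPM of 1. The pathway genes have the highest median of the 6 lists in both libraries, and the genes of degradation, binding and sensing the lowest.

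Genes of heme degradation, binding and sensing were detected in 10 of 15 cases, 3 had 0 counts in both libraries, and the median TPM was 2.32 and 1.90. Blvrb, a biliverdin reductase abundant in red cells, stood far above the rest at 1341.03 and 1093.94. The other biliverdin reductase gene, Blvra, had 2.32 and 0.89 and passed a fold of 2 (log2 ratio -1.26). Rcor1, a corepressor gene that the list also held, had 77.78 and 113.9. Eif2ak1, the kinase that slows translation when heme is short, had 40.83 and 51.82. Beyond counting error, 3 of 11 genes tested were higher in replicate 1 and 3 in replicate 2, beside 35.4% and 32.5% of all genes.

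Genes that control the first enzyme were detected in 13 of 15 cases, at a median TPM of 28.01 and 32.99. The Gata1 cofactor Zfpm1 led at 1978.2 and 2948.27, the erythroid factor Klf1 had 984.09 and 1394.03, and Gata1 had 1250.55 and 872.16. Reads of the introduced fusion and of the Gata1 gene itself cannot be told apart in these tables. In this list 3 of 13 genes tested were higher in replicate 1 and 8 in replicate 2 by the exact binomial test. Over all genes tested 35.4% and 32.5% were. None of the list passed a fold of 2, where 11.3% of all genes did. The median log2 ratio was 0.20, beside -0.03 over all genes tested. All 10 genes of iron-sulfur cluster assembly, whose product Fech carries, were detected. Glrx5 had a TPM of 961.53 and 1098.94, Isca1 85.86 and 95.7, and Bola3 95.22 and 49.62. Of the 10, all tested, 7 were higher in replicate 1 and 2 in replicate 2, beside 35.4% and 32.5% of all genes. None was past a fold of 2 by the same exact test, beside 11.3% of all genes.

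Other protein-coding genes with TPM values most like those of Alas1 and Alas2 were sought by Euclidean distance of log2(TPM + 1) over the 2 libraries. For Alas1 they were Smu1, at 5.73 and 5.12 (distance 0.0074), and Gabpb1, at 5.75 and 4.98 (0.0271), and 27 genes lay within 0.1. For Alas2 they were Fibp, at 9.61 and 3.12 (0.0406), and 1700021F05Rik, at 9.04 and 3.3 (0.0676), and 2 genes lay within 0.1. With 2 libraries the measure says only that the levels were alike.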

How the data were processed

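PolyA RNA-seq tables of 2 libraries of 1 group were used. Per the notes deposited beside the files, values came from alignments to the transcriptome on mm10 with GENCODE M4. Names of an aligner or quantifier are not given in the sources used here. Expected counts, as deposited, are the authors' estimates of fragments per gene or transcript, not normalized. The deposited TPM and FPKM are scaled by effective length and library. FPKM entered 1 alternative. The authors' transcript tables also give percent shares, which were recomputed here from transcript TPM. Names, positions and transcript classes came from GENCODE M21 on GRCm38, the same assembly; 47 of the 51 transcripts have the same length in both releases. Promoter windows came from RefSeq.

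The libraries were compared by an exact two-sided binomial test of rounded counts (scipy 1.17.1) with TMM factors from edgeR 4.0.16, for genes with at least 10 counts over both libraries. A prior count of 0.5 entered log2 ratios. Beyond counting error means an adjusted p under 0.05. Errors are SDs over 2 libraries. The smallest two-sided sign-flip p for 2 libraries is 0.5, and none was run. Binomial p-values measure only counting noise. Alternatives included DESeq2 1.42.0 size factors. The test was tried on simulated counts with counting noise only, the error it assumes, so the trial says nothing of the wider spread of the real pair.

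Members and lists were chosen with earlier results of these data known. The named genes are the members, the 3 most abundant genes of each related list and those past a fold of 2, the 2 genes nearest Alas1 and Alas2, and member transcripts with at least 5% of gene TPM. The marker genes named were chosen after their values were seen. Some genes the rule names are not reported here.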

Additional observations from a re-analysis of the deposited data

How the results depend on the processing

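Transcript choice mattered most. With protein-coding transcripts only, an alternative chosen after seeing the data, the log2 ratio of replicate 2 over replicate 1 turned to 0.21 for Alas2 and 0.62 for Urod. The highest gene then stood 330 ± 124 times (SD, n = 2) above the lowest, and 1 gene, Alas1, was called different between the libraries. Slc25a38 turned to 0.084 by the ratio of TPM, and Ppox and Fech turned to -0.054 and -0.064 with total-count scaling. The cause was not tested. Of the other values, 39 of main results and 69 of single genes stayed within the limits set for them (near the count, within 1 SD or on the same side of 0), and 7 TPM values of single genes moved by more than their SD. Those limits were wide: 6 rather than 9 genes were detected at a TPM of at least 10, and Alas1 over Alas2 was 0.569 with protein-coding transcripts only, which puts Alas2 above Alas1. Leaving out 1 library gave an Alas1 over Alas2 ratio of 0.614 to 1.62, a highest over lowest ratio of 97.6 to 130, a share of the short processed Alas2 transcript of 0.955% to 70.0%, and 9 genes detected each time. Over all genes, 1275 were called with a fold of 2, 709 with at least 50 counts in each library and 103 by the negative binomial test. Counts of 200 to 455 for Alas1, Alas2 and Uros limit their transcript shares. No paired analysis was possible because there was 1 group.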
